A study of Mus musculus with 15 samples.

Results

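Dux siRNA under the LINE1 antisense oligonucleotide (ASO) was followed in 6 of the 15 libraries of the series, chosen as the 3 libraries labelled LINE1 ASO with siDux and the 3 labelled LINE1 ASO with siControl. All 6 came from mouse E14 (E14Tg2A) embryonic stem (ES) cells grown in serum and LIF, the cytokine that keeps ES cells undifferentiated. Cells of both groups had been nucleofected with 5 nmol of the LINE1 ASO, an oligonucleotide directed at the LINE1 family of mobile elements. After 7 h of recovery they were given 100 pmol of siRNA per well, directed at Dux in the group called here LINE1 siDux and a control siRNA in LINE1 control. The cultures were collected unsorted on day 2, and total RNA was made into strand-specific libraries. The same 2 siRNAs were also given to cells that carried the control oligonucleotide RC, with 3 libraries in RC control and 3 in RC siDux, which serve here as the comparison. The comparison addresses what a Dux siRNA changes in cells that already carry the LINE1 ASO.

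Dux encodes a double homeobox transcription factor that is transcribed briefly when the mouse embryonic genome is first switched on. It is known to activate genes of the 2-cell embryo, such as the Zscan4 and Tcstv families, and the endogenous retrovirus MERVL, whose long terminal repeat MT2_Mm serves as a promoter. A small fraction of ES cells in culture pass through a like state, called 2-cell-like, in which these genes and MERVL are transcribed. In RNA of an unsorted culture, fewer cells in that state and less of these RNAs per cell cannot be told apart.

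Each library is a replicate of 1 group, with summed gene counts of 17.43 to 21.02 M in LINE1 control and of 22.71 to 27.56 M in LINE1 siDux, so the siDux libraries were all deeper. In RC control they came to 10.11 to 17.39 M and in RC siDux to 11.46 to 15.66 M, where M is mega. Levels are given in CPM, counts scaled to a library total of 1 M, with the SD over 3 libraries, and log2 changes with their SE. RC control replicate 2 stood apart from the other libraries in its scaling factor (0.874) and in the share of its 10 most abundant genes (6.24% of counts). L1Md counts, those of the young mouse LINE1 elements, do not check the ASO label, so every statement on the LINE1 ASO rests on the label. No label ties a replicate to a culture of its own, and p-values therefore cover the scatter among these libraries, possibly a technical one. Pluripotency markers were abundant in all 6, with Pou5f1, which encodes Oct4, at 711.9, 797.4 and 886.1 CPM in LINE1 control and at 708.7, 797.2 and 794.2 CPM in LINE1 siDux.

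The target itself was scarce. Dux had 25, 18 and 24 counts in LINE1 control and 19, 11 and 12 counts in LINE1 siDux. In CPM these were 1.28, 0.820 and 1.38 against 0.642, 0.459 and 0.512, so every siDux library lay below every control library. The means were 1.16 ± 0.299 and 0.538 ± 0.0941 CPM (SD, n = 3 in each group), and the log2 change of -1.07 ± 0.41 did not pass the test (edgeR quasi-likelihood test, Benjamini-Hochberg adjusted p = 0.298). With the replicate number as a block in a fit on the 6 libraries it did pass, at -1.09 (adjusted p = 0.0146). That fit called 22.5% of all genes, so a pass in it sets Dux little apart. In RC control Dux was at 0.228 ± 0.163 CPM, below each LINE1 siDux library. The treatment of reads with several matches is unknown here, so values of Dux and of other near-identical genes and repeats are uncertain.

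Of 14696 genes tested, 80 were higher in LINE1 siDux than in LINE1 control and 45 were lower, which is 0.544% and 0.306% of the genes tested and 0.851% together. Of these, 21 and 28 changed at least 2-fold. At an unadjusted p under 0.05, 1038 genes (7.06%) were higher and 708 (4.82%) lower. DESeq2 called 224 of the 14696 higher and 100 lower, more than edgeR, and its counts per list below are to be set against these. The genes that fell were led by the 2-cell-like programme, and 19 of the 45 belong to the list of 2-cell-like genes. The genes that rose were mostly changes of modest size, with a median log2 change of 0.76 against -1.37 for those that fell. With the replicate number as a block, 305 were higher (2.08%) and 141 lower (0.959%, and 3.03% together), and in a fit of the block on the 6 libraries 1683 (11.3%) and 1655 (11.2%), with all 80 and all 45 among them in both fits. After all libraries were thinned to the depth of the smallest, 47 were higher and 24 lower, and with scaling to the spike-ins, which lowered the median of all genes to -0.12, 0 were higher and 6 lower.

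Many 2-cell-like genes fell. Of 54 listed genes in the table, 33 passed the filter on low counts, and of these edgeR called 19 lower and 0 higher, and the median log2 change was -1.61, or 3.06-fold, against -0.0027 over all genes tested. At an unadjusted p under 0.05 the counts were 29 lower and 1 higher, with DESeq2 20 and 1, and with the block 25 and 1, or 29 and 1 in the block fit on the 6 libraries. In 30 of the 33 all siDux libraries lay below all control libraries, against 10.9% of all genes tested. A gene could pass the filter with enough counts in 3 libraries. Scarce members may thus have entered through a group where they were high, such as LINE1 control, and could then hardly be seen to rise. The counts and the median of the 33 carry this limit, and the sum over all 54 genes uses no filter. Summed over the 54 genes, the level was 268.6, 232.3 and 257.4 CPM in LINE1 control and 102.0, 92.11 and 116.4 CPM in LINE1 siDux. The siDux libraries were above those of RC control, at 54.55, 45.47 and 43.06 CPM, and of RC siDux, at 30.5, 23.99 and 42.04 CPM. In 22 of the 33 genes every LINE1 siDux library lay above every RC control library, against 21.4% of all genes tested. With any 1 of the 6 libraries left out, between 7 (without LINE1 siDux replicate 2) and 13 genes were called lower, and the median stayed between -1.72 and -1.52.

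Zscan4 genes encode zinc finger proteins linked to telomere elongation and genome stability in ES cells. Zscan4c was at 20.5, 18.35 and 17.31 CPM in LINE1 control and at 5.47, 5.47 and 6.49 CPM in LINE1 siDux. Zscan4f went from 18.35, 13.62 and 14.03 CPM to 4.70, 3.67 and 3.50 CPM. Neither gene had overlapping groups, and both stayed above the RC control libraries in every siDux library. On the log2 scale Zscan4c fell by 1.69 ± 0.24 (adjusted p = 0.00352), Zscan4f by 1.95 ± 0.25 (adjusted p = 0.00278), Zscan4d by 1.79 ± 0.25 (adjusted p = 0.00352) and Zscan4a by 1.96 ± 0.26 (adjusted p = 0.00278). The 4 calls held with each of the 6 libraries left out in turn, with log2 changes of Zscan4c from -1.77 to -1.62 and of Zscan4f from -2.10 to -1.79. Of the other Zscan4 genes called lower, Zscan4e was called in 2 of these 6 fits (-1.96 to -1.62) and Zscan4b in 0 (-2.14 to -1.99).

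Tcstv3 and Tcstv1 belong to a family of genes transcribed in 2-cell embryos. Tcstv3 was at 19.99, 14.76 and 16.62 CPM in LINE1 control and at 5.20, 4.09 and 5.16 CPM in LINE1 siDux. It had the smallest p of all genes (log2 change -1.83 ± 0.21, adjusted p = 0.00211), and its groups did not overlap. Tcstv1 went from 21.83, 18.63 and 24.39 CPM to 7.13, 5.43 and 8.62 CPM, a log2 change of -1.61 ± 0.27 (adjusted p = 0.0104). That call ended without LINE1 control replicate 3 (-1.52, adjusted p = 0.0567) or without LINE1 siDux replicate 2 (-1.46, adjusted p = 0.0703).

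Further falls came from genes of the Prame-like and deubiquitinase families, multigene families transcribed in the early embryo. Gm12794, annotated by RefSeq as the Prame-like gene Pramel19, was at 15.07, 13.07 and 15.36 CPM in LINE1 control and at 3.65, 4.05 and 4.52 CPM in LINE1 siDux (log2 change -1.83 ± 0.24, adjusted p = 0.00278). Dub1, a deubiquitinase gene, was at 18.81, 14.48 and 15.3 CPM against 7.26, 4.63 and 7.04 CPM (log2 change -1.36 ± 0.21, adjusted p = 0.00646). Both were lower in every siDux library, and both calls held with each library left out. Of the others, B020031M17Rik changed by -1.81 ± 0.28, Gm8300 by -1.65 ± 0.25 and Tmem92, which encodes a transmembrane protein, by -1.57 ± 0.27.

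Not every gene of the list was called. Zfp352, a zinc finger gene of 2-cell embryos, was at 2.56, 1.96 and 3.05 CPM in LINE1 control and at 1.79, 0.835 and 1.84 CPM in LINE1 siDux, with no overlap but a call only in the block fit on the 6 libraries (log2 change -0.75 ± 0.36, adjusted p = 0.438, and 0.0121 in that fit). Zfp750, whose human counterpart acts in epidermal differentiation, went the other way, from between 11.79 and 12.89 CPM to between 17.6 and 24.71 CPM (0.72 ± 0.19, adjusted p = 0.0934, and 0.0319 with the block). Dcdc2c, a doublecortin-domain gene that is not on the list, fell with the 2-cell-like genes, from 27.21, 22.09 and 26.75 CPM to 10.91, 9.56 and 12.21 CPM (-1.22 ± 0.18, adjusted p = 0.00475).

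**Figure D1:**
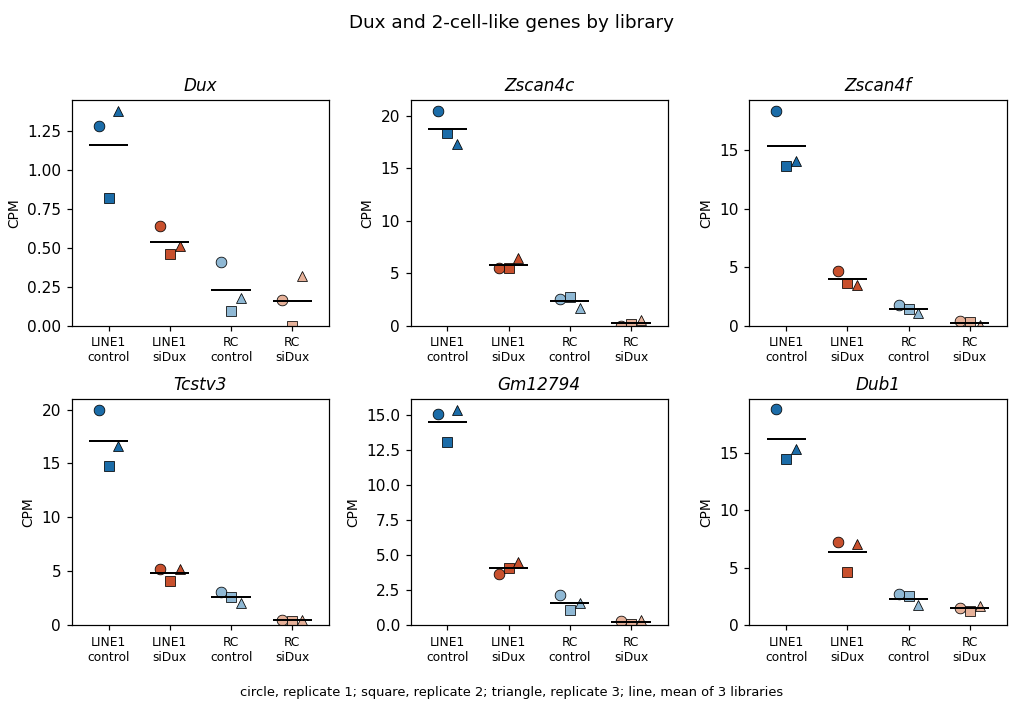
Levels of Dux and 5 genes of the 2-cell-like list in CPM on a linear axis, with 1 point for each of 3 libraries in 4 groups and a line at the mean. In each panel the 3 LINE1 siDux libraries lie below the 3 LINE1 control libraries, and for Zscan4c, Zscan4f and Tcstv3 above the 3 RC control libraries.

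Promoter sequence was compared because mouse Dux is known to bind a palindromic DNA motif. RefSeq gives a window of 250 bases before to 50 after the gene start for 30 of the 45 genes that fell and for 61 of the 80 that rose. An 11-letter form of the motif stood in 11 of 32851 windows and in none of these genes, so its 9-letter core GATTNAATC was searched, a form chosen after the windows had been seen. It reads the same on both strands. It was in 4 of the 30 genes that fell (13.3%), in 0 of the 61 that rose and in 24 of 11522 tested genes with a window (0.208%). No match says only that these letters are not in this window, and a match is a description of the sequence and not a binding site.

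The windows of the 4 genes are shown first, and that of Zscan4f last as a gene with a large fall whose window lacks the core. Each is the 250 bases before the gene start (RefSeq, GRCm38.p6), 5′ to 3′ in the direction of the gene, with the core in capitals.
Gm13119, chr4:144357714-144357963, plus strand: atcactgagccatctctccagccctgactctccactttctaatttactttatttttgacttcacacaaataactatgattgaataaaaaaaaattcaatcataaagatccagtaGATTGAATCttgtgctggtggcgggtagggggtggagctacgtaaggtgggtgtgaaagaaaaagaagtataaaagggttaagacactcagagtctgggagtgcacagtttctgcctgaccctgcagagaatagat
Gm8994, chr6:136327289-136327538, plus strand: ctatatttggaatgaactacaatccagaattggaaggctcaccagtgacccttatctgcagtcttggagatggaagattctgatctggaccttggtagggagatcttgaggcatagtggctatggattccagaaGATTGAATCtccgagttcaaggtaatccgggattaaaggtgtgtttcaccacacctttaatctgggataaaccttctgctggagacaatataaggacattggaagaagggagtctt
Gm4340, chr10:104193792-104194041, plus strand: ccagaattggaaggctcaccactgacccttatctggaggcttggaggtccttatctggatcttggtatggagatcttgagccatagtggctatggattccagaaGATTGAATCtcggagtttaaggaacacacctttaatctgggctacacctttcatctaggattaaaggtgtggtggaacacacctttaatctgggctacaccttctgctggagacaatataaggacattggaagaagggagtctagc
D17Ertd648e, chr17:11883190-11883439, minus strand: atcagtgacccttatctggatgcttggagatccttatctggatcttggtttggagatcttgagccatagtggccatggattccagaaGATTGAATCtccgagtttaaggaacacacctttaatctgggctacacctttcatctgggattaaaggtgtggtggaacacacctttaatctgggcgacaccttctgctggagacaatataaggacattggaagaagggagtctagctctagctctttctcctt
Zscan4f, chr7:11397665-11397914, plus strand: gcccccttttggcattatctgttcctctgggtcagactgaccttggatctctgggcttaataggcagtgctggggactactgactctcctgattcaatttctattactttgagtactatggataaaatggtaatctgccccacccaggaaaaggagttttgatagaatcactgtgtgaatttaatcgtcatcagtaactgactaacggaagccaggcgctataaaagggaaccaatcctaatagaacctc

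The core began 136 bases before the start in Gm13119 (Pramel31), 116 in Gm8994 (Eif4a3l1), 146 in Gm4340 and 163 in D17Ertd648e. The last 3 genes share most of their window, with 75.2% identical bases between Gm8994 and Gm4340, 86.1% between Gm4340 and D17Ertd648e and 65.5% between Gm8994 and D17Ertd648e, so their matches are not independent. Gm13119 was alike to them at 48.0 to 50.0%, near the 47.0 to 49.4% of Zscan4f with these 4. The core was also in the window of B020004J07Rik (Pramel17), a gene of the 2-cell-like list that was not called lower. That window shared 79.8% identical bases with Gm8994, 79.3% with Gm4340 and 73.8% with D17Ertd648e. Neither the core nor the shared window was thus confined to genes called lower. Gm8994 was at 17.83, 17.85 and 20.19 CPM in LINE1 control and at 6.96, 6.43 and 8.15 CPM in LINE1 siDux (log2 change -1.37 ± 0.26, adjusted p = 0.0222). D17Ertd648e went from 7.74, 7.29 and 7.59 CPM to 3.55, 4.30 and 3.84 CPM (-0.95 ± 0.21, adjusted p = 0.0449), Gm13119 changed by -1.51 ± 0.27 and Gm4340, at under 3 CPM, by -2.30 ± 0.43. All 4 had siDux libraries below every control library. Each of these 4 calls ended when single libraries were left out, those of Gm8994 and D17Ertd648e with any 1 of the 6 (log2 changes from -1.47 to -1.30 and from -1.03 to -0.89).

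In repeat RNA, MERVL and its long terminal repeat were the subfamilies that the edgeR test called. Of 808 subfamilies tested, 2 were lower and 0 higher (0.248% and 0%), with 9 and 6 at an unadjusted p under 0.05, and DESeq2 called 3 lower and 0 higher. MERVL-int, the internal part of the virus, was at 2117, 1811 and 2048 CPM in LINE1 control and at 790.1, 686.1 and 957.9 CPM in LINE1 siDux. MT2_Mm was at 235.9, 191.2 and 232.7 CPM against 96.11, 87.19 and 111.1 CPM. In both, every siDux library lay below every control library, as in 4.58% of all subfamilies (2.72% lay apart in the other direction), and above every RC control library, which held 651.0, 369.9 and 567.5 CPM of MERVL-int and 78.95, 82.7 and 70.86 CPM of MT2_Mm. The log2 changes were -1.30 ± 0.22 for MERVL-int (adjusted p = 0.00608) and -1.16 ± 0.17 for MT2_Mm (adjusted p = 0.00206). The call of MERVL-int ended without LINE1 siDux replicate 2 (-1.19, adjusted p = 0.0785), and both ended with scaling to the spike-ins, at log2 changes of -1.45 and -1.31.

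Other repeats gave no call in the edgeR fit without the block, and in the block fit on the 6 libraries 14 subfamilies were higher and 17 lower. MT2C_Mm, another MT2 repeat, was at 39.41, 34.98 and 37.1 CPM against 27.74, 25.5 and 27.78 CPM, with no overlap (-0.46 ± 0.12, adjusted p = 0.253). It was called lower by DESeq2 (adjusted p = 0.0498) and in the block fit on the 6 libraries (adjusted p = 7.98e-11). The last p-value comes from a fit with fewer residual degrees of freedom and is not read as stronger evidence than the main fit. Of the 6 L1Md subfamilies none was called by edgeR without the block or by DESeq2, none reached an unadjusted p under 0.05, and 1, L1Md_A, was called in the block fit on the 6 libraries (0.17, adjusted p = 0.0375), with a median log2 change of 0.11 against 0.021 over all subfamilies, a median that turned to -0.0078 with spike-in scaling. L1Md_T, an active LINE1 subfamily, was at 3506, 3112 and 2216 CPM in LINE1 control and at 3700, 3495 and 2526 CPM in LINE1 siDux, groups that overlap (0.14 ± 0.23, adjusted p = 0.997). IAPEz-int, of the IAP retrotransposons, was at 516.6 ± 28.8 and 547.2 ± 59.5 CPM. Both ribosomal RNA subfamilies rose without overlap (median log2 change 0.40), with no call by edgeR without the block or by DESeq2. Summed, they were at 2928, 3345 and 3139 CPM in LINE1 control and at 3850, 3836 and 4877 CPM in LINE1 siDux. The 2 were higher at an unadjusted p under 0.05, against 0.743% of all subfamilies, and 2.72% of all subfamilies lay higher without overlap.

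**Figure D2:**
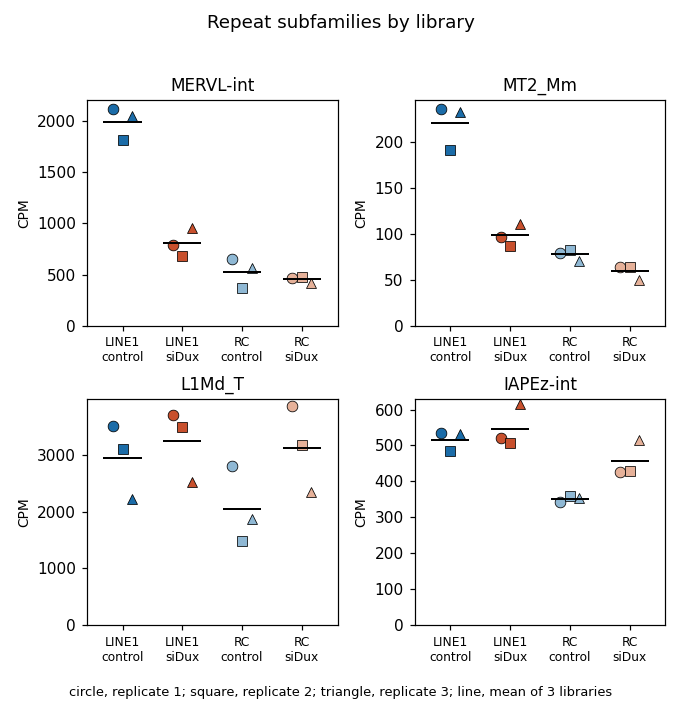
Levels of 4 repeat subfamilies in CPM of the gene counts on a linear axis, with 1 point for each of 3 libraries in 4 groups and a line at the mean. MERVL-int and MT2_Mm are lower in LINE1 siDux than in LINE1 control with no overlap, while L1Md_T and IAPEz-int overlap.

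Some targets of the tumour suppressor p53 rose. Of 42 tested, edgeR called 4 higher and 0 lower (25 and 0 at an unadjusted p under 0.05, where 7.06% of all genes were higher, and 11 and 0 with DESeq2), with a median log2 change of 0.37. In 27 of them all siDux libraries lay above all control libraries, against 11.8% of all genes tested. DESeq2 called 224 of all 14696 genes higher and 100 lower. Mdm2, which encodes the ubiquitin ligase that degrades p53, was at 373.6, 329.9 and 349.2 CPM in LINE1 control and at 509.7, 541.1 and 693.3 CPM in LINE1 siDux (log2 change 0.73 ± 0.14, adjusted p = 0.0240). Perp, a p53-induced gene of desmosomes, was at 63.9, 58.21 and 70.57 CPM against 103.3, 108.0 and 162.6 CPM (0.96 ± 0.19, adjusted p = 0.0334). In both genes the groups did not overlap, and LINE1 siDux replicate 3 was the highest library. The kinase gene Plk3 (0.56 ± 0.12) and the epoxide hydrolase gene Ephx1 (0.49 ± 0.11) also rose.

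Cdkn1a, the gene of the cell cycle inhibitor p21, was at 57.4, 53.79 and 61.14 CPM in LINE1 control and at 69.36, 68.86 and 114.5 CPM in LINE1 siDux. The groups did not overlap, but the change did not pass (0.55 ± 0.20, adjusted p = 0.250) other than with the block (adjusted p = 0.0339). With the block 14 p53 targets were called higher, and 31 higher and 1 lower in the block fit on the 6 libraries. Over all genes tested these fits called 2.08% higher with the block, and 11.3% higher and 11.2% lower on the 6 libraries. With any 1 of the 6 libraries left out between 0 and 2 were called, and the median ran from 0.28, without LINE1 siDux replicate 3, to 0.41. Without single libraries the calls of Mdm2 and Perp held only when LINE1 siDux replicate 1 was the one left out, and log2 changes of Mdm2 ran from 0.59 to 0.81.

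**Figure D3:**
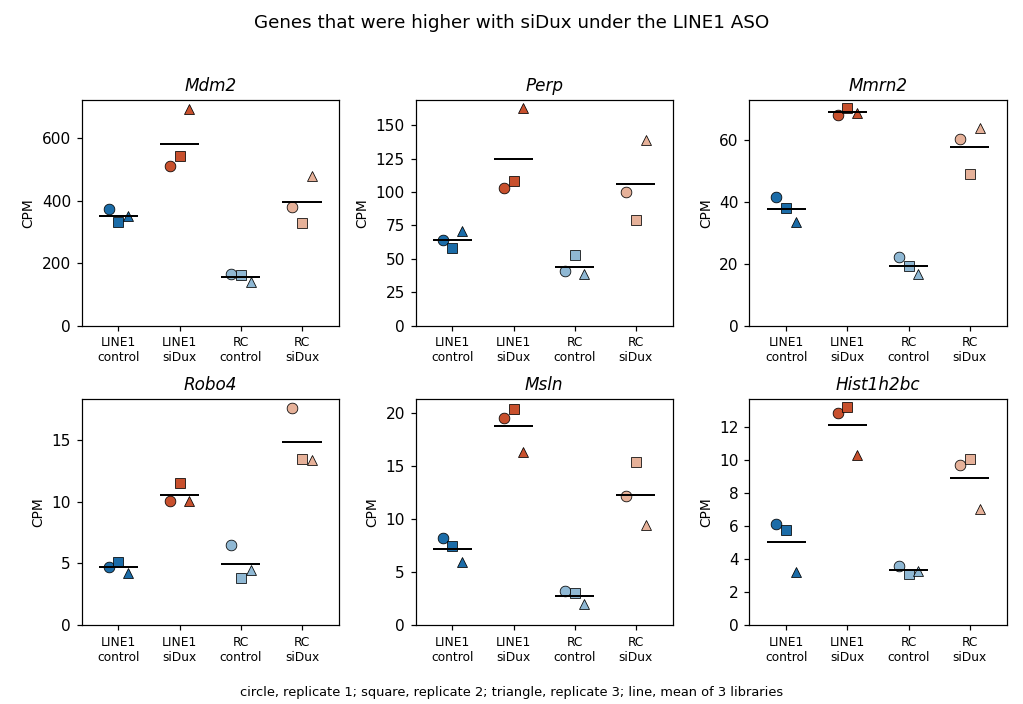
Levels of 6 genes called higher in LINE1 siDux, in CPM on a linear axis, with 1 point for each of 3 libraries in 4 groups and a line at the mean. All 3 LINE1 siDux libraries lie above all 3 LINE1 control libraries in each panel, and replicate 3 is the highest of the siDux libraries for Mdm2 and Perp.

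Some genes of endothelial cells rose. Of 17 endothelial markers tested, edgeR called 5 higher and 0 lower (8 and 0 at an unadjusted p under 0.05, where 7.06% of all genes were higher, and 6 and 0 with DESeq2), with a median log2 change of 0.50. The log2 change was positive in 13 and negative in 4. Of all 14696 genes DESeq2 called 224 higher and 100 lower. The block called 6 higher (2.08% of all genes), and on the 6 libraries 7 higher and 2 lower (11.3% and 11.2% of all genes). Mmrn2, which encodes an extracellular matrix protein of blood vessels, was at 41.71, 38.17 and 33.65 CPM in LINE1 control and at 68.18, 70.2 and 68.71 CPM in LINE1 siDux (0.87 ± 0.11, adjusted p = 0.00278). Robo4, an endothelial guidance receptor gene, went from 4.72, 5.15 and 4.26 CPM to 10.1, 11.56 and 10.11 CPM (1.17 ± 0.17, adjusted p = 0.00559). Neither overlapped, and both calls held with each of the 6 libraries left out. The receptor genes Tek (0.56 ± 0.13), Eng (0.58 ± 0.13) and Tie1 (1.11 ± 0.24) were the others, calls that ended with any 1 of the 6 libraries left out.

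The level summed over all 20 endothelial markers was 262.7 to 330.5 CPM in LINE1 control and 384.4 to 387.9 CPM in LINE1 siDux. Pecam1, a defining marker that ES cells also transcribe, was at 130.6, 119.5 and 92.37 CPM against 126.3, 115.6 and 93.07 CPM, and Cdh5, which encodes the cadherin of endothelial junctions, was at or below 0.768 CPM in all 6 libraries. No marker was at 0 in LINE1 control and 1 in LINE1 siDux. Fibroblast markers summed to 1226 to 1352 and 1089 to 1235 CPM and endoderm markers to 1445 to 1613 and 1510 to 1648 CPM, and edgeR called 0 members of either list. At an unadjusted p under 0.05, 3 fibroblast markers were higher and 1 lower, and 4 endoderm markers were higher. DESeq2 called 0 and 1, the block fit 2 and 1 higher, and the block fit on the 6 libraries 6 higher and 1 lower, and 7 higher and 2 lower. Over all genes tested 7.06% were higher and 4.82% lower at that unadjusted p. The block called 2.08% of all genes higher, and on the 6 libraries 11.3% higher and 11.2% lower. The part of other cell types in these changes was not tested.

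Among the other genes that rose, Msln, which encodes the surface protein mesothelin, was at 8.20, 7.42 and 5.92 CPM in LINE1 control and at 19.53, 20.41 and 16.3 CPM in LINE1 siDux (1.38 ± 0.19, adjusted p = 0.00352). It was the only gene besides Mmrn2 and Robo4 whose call as higher held with each of the 6 libraries left out. Hist1h2bc, a gene of histone H2B, went from 6.15, 5.74 and 3.22 CPM to 12.87, 13.19 and 10.33 CPM (1.26 ± 0.21, adjusted p = 0.0117), a call that ended without LINE1 control replicate 3 or LINE1 siDux replicate 2. With Hist3h2a (1.24 ± 0.27) it made 2 of 18 tested replication-dependent histones called higher, against 0.544% of all genes. The call of Hist3h2a ended with any 1 of the 6 libraries left out. Only 18 of 68 listed histones passed the filter, the log2 change was positive in 17, and the median was 0.47. In 7 all siDux libraries lay above all control libraries, against 11.8% of all genes. Summed over the 68, levels were low, at 30.02 to 44.36 CPM in LINE1 control and 49.63 to 67.24 CPM in LINE1 siDux. Further rises were the AP-1 gene Fosl1 (1.13 ± 0.21), the G protein regulator gene Rgs14 (1.14 ± 0.25), the T-box gene Tbx4 (1.12 ± 0.24), the leukotriene receptor gene Ltb4r2 (1.31 ± 0.29), the muscle fructose bisphosphatase gene Fbp2 (1.27 ± 0.26) and Pvrl4, which encodes nectin-4 (1.26 ± 0.27).

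Genes of other kinds also fell. Meg3, a noncoding RNA of the imprinted Dlk1-Dio3 region, was at 211.5, 194.0 and 239.4 CPM in LINE1 control and at 147.1, 152.1 and 149.7 CPM in LINE1 siDux (-0.52 ± 0.11, adjusted p = 0.0449). Mirg, a microRNA host RNA of the same region, went from 13.73, 14.94 and 15.13 CPM to 9.32, 8.68 and 9.47 CPM (-0.67 ± 0.12, adjusted p = 0.0155). Rian, another RNA of the region, was at 278.8, 285.3 and 417.8 CPM against 218.2, 231.8 and 248.2 CPM, and did not pass (-0.49 ± 0.17, adjusted p = 0.224, and 0.0352 with the block). None of the 3 had overlapping groups. The glycogen synthase gene Gys1 (-0.68 ± 0.13) and Camkv, a kinase-like gene of neurons (-0.71 ± 0.15), were called lower too. These calls did not hold with every library left out, and those of Meg3 (adjusted p from 0.0985 to 0.198) and Camkv (0.0688 to 0.204) ended with any 1 of the 6 left out.

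Several lists held no call in the fit without the block. Of 44 genes of the integrated stress response, which ATF4 drives, 40 had a negative log2 change and the median was -0.26. The edgeR test called 0 of them (19 lower and 0 higher at an unadjusted p under 0.05, 1 lower with DESeq2 and 3 with the block), against 4.82% of all genes lower at that unadjusted p. In the block fit on the 6 libraries 29 were lower and 1 higher, against 11.2% and 11.3% of all genes. In 19 the groups did not overlap, against 10.9% of all genes tested. Psat1, of serine synthesis, was at 298.5, 309.6 and 385.2 CPM against 236.8, 237.8 and 266.9 CPM (-0.42 ± 0.13, adjusted p = 0.157, and 0.0379 with the block), and the transporter gene Slc7a3 changed by -0.43 ± 0.13 (adjusted p = 0.0358 with the block). Of 33 genes of hypoxia and glycolysis edgeR called 0 (4 lower at an unadjusted p under 0.05, 1 with DESeq2, 4 with the block, and 16 lower and 1 higher with the block on the 6 libraries), and the median was -0.13, with Pdk1, a kinase that restrains pyruvate oxidation, at -0.61 ± 0.15 (adjusted p = 0.0738, and 0.00625 with the block). Of 23 mesoderm and primitive streak markers edgeR called 0 (6 higher at an unadjusted p under 0.05, 1 with DESeq2, 1 with the block and 12 with the block on the 6 libraries), the median was 0.44 and 21 were positive. Over all genes tested 7.06% were higher at that unadjusted p, and the block called 2.08% higher and 0.959% lower.

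Pluripotency factors gave no call without the block either. Of 30 tested edgeR called 0 (3 lower at an unadjusted p under 0.05, 1 with DESeq2, 1 with the block, and 9 lower and 2 higher with the block on the 6 libraries) and the median log2 change was -0.057, with Pou5f1 at -0.059 ± 0.13, Sox2 at -0.16 ± 0.09 (adjusted p = 0.0130 with the block on the 6 libraries) and Nanog at 0.12 ± 0.16. Ncl, which encodes the nucleolar protein nucleolin (-0.11 ± 0.12), and Trim28, which encodes a corepressor of retrotransposons (-0.086 ± 0.11), did not pass. Of 31 regulators of Dux edgeR called 0 (3 lower at an unadjusted p under 0.05, 1 with DESeq2, 1 with the block, and 8 lower and 2 higher with the block on the 6 libraries), with a median of -0.029. Beside both lists, 4.82% of all genes tested were lower at that unadjusted p and 0.959% with the block. On the 6 libraries the block called 11.2% of all genes lower and 11.3% higher. Dppa2 (0.14 ± 0.11) and Dppa4 (0.12 ± 0.10), which encode activators of Dux, did not pass either, other than Dppa2 with the block on the 6 libraries (adjusted p = 0.0321).

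**Figure D4:**
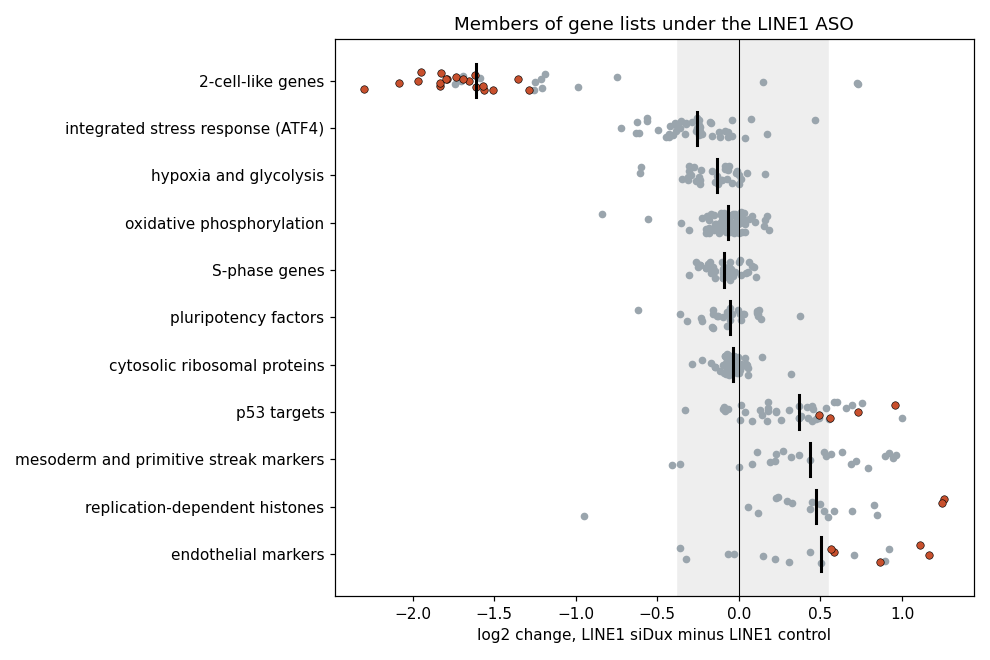
Log2 change between LINE1 siDux and LINE1 control for each tested member of 11 gene lists, with members called at an adjusted p under 0.05 in orange, others in grey and the list median as a black bar. The grey band holds the 5th to 95th percentile of all genes tested (-0.37 to 0.55), and the 2-cell-like genes lie mostly to its left. Members of several lists, the p53, histone and endothelial lists among them, reach past its right edge.

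The genes called under the LINE1 ASO were set against the same siRNA under the RC ASO, a comparison with its own 6 libraries. There, 895 genes were higher and 661 lower (6.09% and 4.5% of genes tested). Of the 80 genes that rose under the LINE1 ASO, 75 were also called higher under RC, which is 93.75% of the first list and 8.38% of the second. Of the 45 that fell, 30 were also called lower (66.67% and 4.54%). All 80 and 43 of the 45 had the same sign under RC. The median log2 changes of the 80 were 0.76 under LINE1 and 1.11 under RC, and of the 45 they were -1.37 under both. With any 1 of the 6 RC libraries left out, 70 to 74 of the 80 and 23 to 30 of the 45 were also called, fewest without RC siDux replicate 3, and the RC median of the 45 ran from -1.66 to -1.05. Without RC control replicate 2, the library that stood apart, the counts were 74 and 30.

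The difference between the ASOs was tested as an interaction. The edgeR test called 0 genes and 0 subfamilies (491 genes and 25 subfamilies at an unadjusted p under 0.05, smallest adjusted p = 0.0957 for genes and 0.615 for subfamilies), and DESeq2 called 1 gene higher and 9 lower. The smallest was that of Ptprv, chosen after its values were seen, which changed by 0.77 ± 0.14 under LINE1 and by 2.15 ± 0.16 under RC. An interaction that misses the threshold does not show that the siRNA acted alike under both ASOs. Tcstv1 fell by 1.61 ± 0.27 under LINE1 and by 5.02 under RC, where it went from 5.25 to 0.142 CPM (edgeR interaction, adjusted p = 0.268). Very few reads remain at 0.142 CPM, so the size of the fall under RC is uncertain. Dcdc2c changed by -1.22 under LINE1 and by -0.43 under RC (edgeR interaction, adjusted p = 0.981), and Mdm2 by 0.73 and 1.34 (edgeR interaction, adjusted p = 0.981). MERVL-int changed by -1.30 under LINE1 and by -0.23 ± 0.22 under RC, from 529.5 to 452.6 CPM (edgeR interaction, adjusted p = 0.936).

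**Figure D5:**
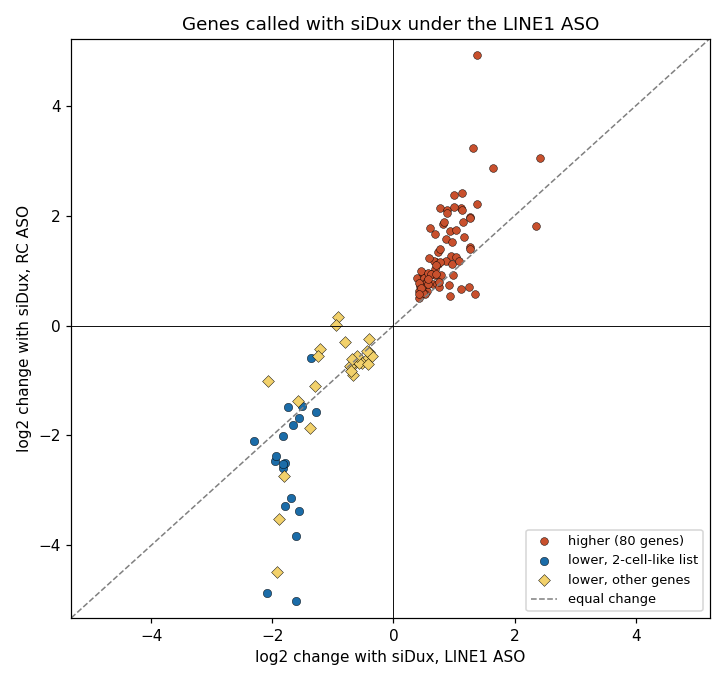
Log2 change with siDux under the LINE1 ASO against that under the RC ASO for the 125 genes called under the LINE1 ASO, with a dashed line of equal change. The genes were chosen by the values on the x axis, all 80 that rose lie above 0 on both axes, and 43 of the 45 that fell lie below 0 on both.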

How the data were processed

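RNA of mouse E14 ES cells was measured in 15 libraries of 5 groups. The authors deposited read counts of 23284 genes with 92 ERCC spike-ins, and of 1217 repeat subfamilies in a second table. Per the submitters' processing notes, the authors used Trim Galore 0.4.0, TopHat2 2.0.9, the mm9 build, R 3.3.0 and DESeq2 1.12.3, and how reads with several matches were handled is not known here. Promoter sequences and their coordinates are those of RefSeq on GRCm38.p6, another build than that of the counts.

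The tests used edgeR 4.0.16 under R 4.3.3. ERCC rows were left out, genes with too few counts were removed with filterByExpr by group, TMM gave the scaling factors, and the quasi-likelihood fit had 1 term per group over all 15 libraries, which leaves 10 residual degrees of freedom. P-values were adjusted by Benjamini-Hochberg over all 14696 genes or 808 subfamilies, with a threshold of 0.05. Repeats used library sizes and scaling factors of the gene table, and CPM values use the same factors. SE values follow from the F statistic. Depth limits precision most for genes with few counts, such as Dux. The tests were tried on simulated data with known changes and no effect of the replicate number, so the trial does not show how they behave with such an effect.

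As a check of pairing, same-numbered libraries were compared in their deviations from group means, with correlations of 0.593, 0.364 and 0.653 under the LINE1 ASO and 0.273, 0.223 and 0.316 under the RC ASO. Different-numbered libraries gave -0.637 to 0.316 under the LINE1 ASO and -0.256 to -0.0444 under the RC ASO. The labels do not say what a replicate number marks, so the main fit has no block. A fit with the number as a block is given beside its counts. Restricted to the 6 libraries compared, the block fit has fewer residual degrees of freedom than the main fit. There it called 11.3% of genes higher and 11.2% lower, near the 11.8% and 10.9% whose groups did not overlap. A call in that fit is therefore hardly selective. Other alternatives were RLE scaling, scaling to the spike-ins, no filter, a filter at a mean of 5 CPM (100 counts for repeats), own scaling of repeats, DESeq2 1.42.0 (Wald test), thinning to 1 depth, the compared libraries only, and each library left out in turn.

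The members, lists and alternatives were chosen with earlier results of these data known. Genes are named by a rule, with fixed names, up to 12 called genes per direction taken by size of change (5 CPM or more, no overlap), and up to 4 per list. Some names within the rule are left out. Dub1, Dcdc2c, Gm8994, Gm4340, Gm13119, D17Ertd648e, B020004J07Rik, Eng, Zfp750, Meg3, Mirg, Rian, Gys1, Camkv, Pecam1, Cdh5, MT2C_Mm and the ribosomal RNA subfamilies fall outside it and were picked with their values in view.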

Additional observations from a re-analysis of the deposited data

How the results depend on the processing

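The number of genes called higher and lower under the LINE1 ASO was 80 and 45, and with the replicate block 305 and 141, with the block on the 6 libraries 1683 and 1655, on the 6 libraries alone 50 and 45, with DESeq2 224 and 100, after thinning 47 and 24, with spike-in scaling 0 and 6, and lower with the stricter filter 28. With a library left out 4 to 34 were higher and 9 to 17 lower, and in every such fit 3 of the 80 and 9 of the 45 were called. These fits had no block and 1 library fewer in a group, and the part of that in the ended calls was not tested. Spike-in scaling moved the median of all genes to -0.12, and the p53, endothelial and 2-cell-like medians relative to it were 0.35, 0.46 and -1.64. For repeats the block on the 6 libraries gave 14 higher and 17 lower, spike-in scaling 0 lower and left-out libraries 1 to 2 lower. Under the RC ASO, 895 and 661 genes became 187 and 10 with spike-in scaling, 201 and 41 on the 6 libraries, 573 and 262 with the block on them, 406 to 927 and 154 to 1093 with a library left out, and lower 1126 with the block and 1002 with DESeq2. The 2 higher and 1 lower subfamilies there became 0 and 0 with spike-in scaling, 21 and 4 with the block, 4 and 2 with DESeq2, 1 higher with own scaling, 0 lower after thinning, 0 and 0 on the 6 libraries, 1 and 0 with the block on them, and 1 to 4 and 0 to 5 with a library left out. The interaction gave 1 higher and 9 lower genes with DESeq2, 1 lower with no filter and 0 to 1 lower with a library left out.

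Uncalled values near 0 changed sign. With spike-in scaling IAPEz-int was -0.063, L1Md_F -0.034, L1Md_F3 -0.059 and L1Md_Gf -0.052. With a LINE1 library left out the log2 changes ran from -0.0028 to 0.13 for IAPEz-int, -0.024 to 0.19 for L1Md_F, -0.064 to 0.20 for L1Md_F3, -0.12 to 0.24 for L1Md_Gf, -0.028 to 0.30 for L1Md_T, -0.017 to 0.23 for Nanog, -0.16 to 0.0006 for Ncl, -0.13 to 0.023 for Pou5f1 and -0.19 to 0.047 for Trim28. The causes were not tested. Counts of Dux and of some 2-cell-like genes are low, so depth limits their values.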

Other observations

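At an unadjusted p under 0.05, 7.06% of all genes were higher and 4.82% lower, and DESeq2 called 224 of 14696 higher and 100 lower. Among 22 trophoblast markers the median log2 change was 0.30, with 5 higher at an unadjusted p under 0.05 and 1 called with DESeq2, and among 25 endoderm markers it was 0.21. Among 22 immediate-early genes, which growth signals switch on, the median was 0.26 and Fosl1 was the 1 gene called. Among 29 apoptosis effectors 6 were higher at an unadjusted p under 0.05 and 2 with DESeq2, and the median was 0.097 (-0.018 under spike-in scaling). The block fit called 1 trophoblast marker and 2 apoptosis effectors higher, and on the 6 libraries 12 and 9 higher and 1 and 3 lower. Over all genes tested the block called 2.08% higher, and on the 6 libraries 11.3% higher and 11.2% lower.

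For genes of growth the list medians ran from -0.094 to 0.0083. The median was -0.039 for 82 cytosolic ribosomal proteins, 0.0083 for 80 ribosome biogenesis and RNA polymerase I genes (-0.11 with spike-in scaling), -0.0091 for 39 translation factors, -0.068 for 82 genes of oxidative phosphorylation, -0.094 for 42 S-phase genes and -0.045 for 36 G2/M genes. Without the block, the edgeR test called 0 genes of these 6 lists, with 0, 1, 0, 0, 0 and 0 higher and 0, 2, 1, 1, 4 and 1 lower at an unadjusted p under 0.05, and DESeq2 called 1, an S-phase gene that was lower. Over all genes tested 7.06% were higher and 4.82% lower at that unadjusted p. Groups lay lower without overlap in 14 of 42 S-phase and 18 of 82 oxidative phosphorylation genes, against 10.9% of all genes tested. In the other lists 2 to 4 genes did so. The log2 change was negative in 34 of the S-phase and 65 of the oxidative phosphorylation genes. With the block 1 S-phase gene was lower, where 0.959% of all genes were lower. In the block fit on the 6 libraries, where 11.3% of all genes were higher and 11.2% lower, 15 S-phase and 13 oxidative phosphorylation genes were lower, 0 and 3 were higher, and of ribosome biogenesis genes 9 were higher and 5 lower. Of the ribosomal protein, translation factor and G2/M lists 1, 1 and 2 were higher and 3, 2 and 2 lower.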
